A study of Mus musculus with 4 samples.

Results

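The 10 mRNAs described here encode subunits of the machinery that carries new proteins into the endoplasmic reticulum (ER) of the mouse heart, and they were chosen by name from the 15746 genes listed. They were the channel subunits Sec61a1, Sec61b and Sec61g, the accessory subunits of signal peptidase Spcs1, Spcs2 and Spcs3, and the 4 subunits of the translocon-associated protein complex, Ssr1, Ssr2, Ssr3 and Ssr4. RNA was sequenced from 2 fractions of WT hearts, with 2 libraries of each. The mitochondrial fraction was the pellet of a fast spin, which was treated with digitonin and RNase A, and the rest fraction was the debris pellet of the slow spin before it. The authors describe the hearts as adult. No strain or age is given in the labels, and they do not say which libraries came from the same animal. The fractions also differed in the digitonin and RNase A treatment and in the RNA fragmentation time of library preparation, and these cannot be told apart from the fraction. The supernatant of the fast spin was removed and is in neither fraction. The comparison asks whether the mRNAs of a machinery on another organelle were found at a different level in isolated mitochondria than in the debris pellet.

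Proteins that are secreted or built into membranes are recognised by the signal recognition particle while they are still being made, and the ribosome is brought to the Sec61 channel in the ER membrane. Sec61a1 forms the pore, and Sec61b and Sec61g are small tail-anchored subunits beside it. Signal peptidase cuts off the signal peptide, and the translocon-associated protein complex sits next to the channel and helps some signal peptides to enter. In heart muscle this route makes ion channels, receptors and extracellular matrix, and ER membranes lie close to mitochondria at contact sites.

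All 10 genes are protein-coding. In 9 of the 10 the coding part was under 1000 bases, from 207 bases in Sec61g to 861 bases in Ssr1, and in Sec61a1 it was 1431 bases. The whole mRNAs were not all short. Only Sec61b (564 bases), Spcs1 (702 bases) and Ssr4 (765 bases) were under 1000 bases in the GENCODE M21 annotation, while 5 were over 2000 bases. Ssr1 had the longest mRNA, 9333 bases, of which 8338 bases were 3′ untranslated. Short therefore describes the coding part of 9 members but the mRNA of 3.

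Copies of the 2 members with the shortest coding parts stand elsewhere in the annotation, and the authors left out reads that aligned to several places. The effect of these copies on the counts was not tested. Sequenced reads were 75 bases long before trimming, and reads shortened by trimming can match copies more often than the shares below. Of the 133 windows of 75 bases in the coding part of Sec61g, 133 (100%) were also present in transcripts of Gm10177, Gm11575 or Gm16412. For Sec61b this was so for 117 of 217 coding windows (53.92%), shared with Gm10320, Gm33666 and Gm5870. Over the whole mRNA the share was 19.35% for Sec61g and 23.88% for Sec61b. Genes that overlap a member at its own locus were left out of this search. Spcs2 shared 1.869% of its mRNA windows with its pseudogene Spcs2-ps, and the other 7 members shared none. None of these copies was listed among the 15746 genes. The coding parts of both small subunits are shown because their counts can depend on this sequence. Bases in capitals are those at which the closest copy differs.
Sec61g (207 bases, no difference from Gm10177): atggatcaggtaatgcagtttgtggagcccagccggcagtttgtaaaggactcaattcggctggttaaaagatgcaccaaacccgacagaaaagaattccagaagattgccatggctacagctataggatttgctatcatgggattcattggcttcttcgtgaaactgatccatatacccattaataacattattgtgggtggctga
Sec61b (291 bases, 5 differences from Gm10320): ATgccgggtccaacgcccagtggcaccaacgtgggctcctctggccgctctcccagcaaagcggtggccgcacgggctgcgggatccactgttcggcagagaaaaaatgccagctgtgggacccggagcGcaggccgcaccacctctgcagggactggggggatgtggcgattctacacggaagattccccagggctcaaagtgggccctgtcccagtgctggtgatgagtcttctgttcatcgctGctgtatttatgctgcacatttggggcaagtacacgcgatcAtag
A read lying wholly in the coding part of Sec61g matches a copy as well, so the values of Sec61g and Sec61b are uncertain.

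**Figure D1:**
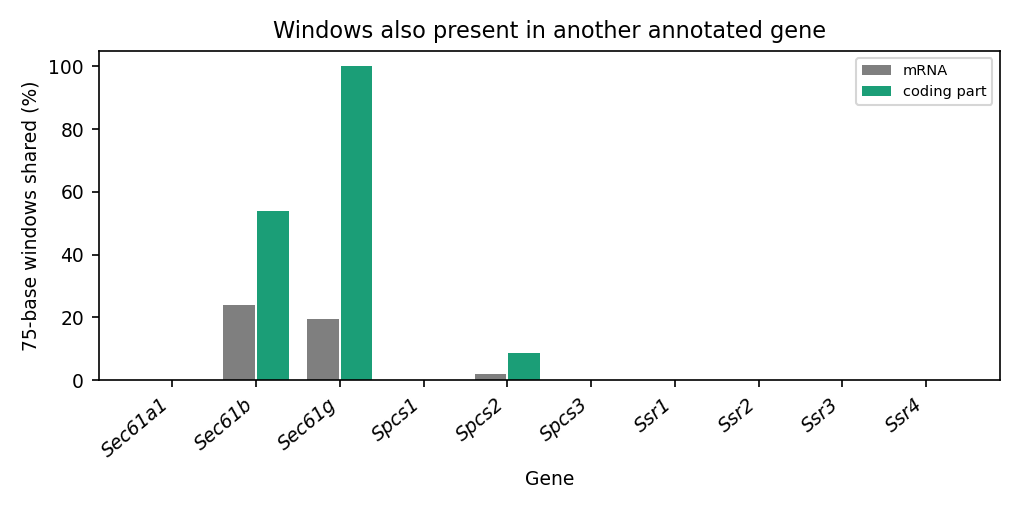
Percent of all 75-base windows of each member's mRNA (grey) and coding part (green) that also occur, base for base, in a transcript of another annotated gene. Genes that overlap the member at its own locus were left out. Sec61g (100% of coding windows) and Sec61b (53.92%) stand apart, Spcs2 has 8.731%, and the other 7 genes are at 0.

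About 47300000 and 32100000 reads lay on genes in mitochondrial replicates 1 and 2, and 26300000 and 23500000 in rest replicates 1 and 2. Genes of the mitochondrial chromosome held 97.6% and 93.5% of the mitochondrial libraries and 63.2% and 67.5% of the others. Read numbers here and below were estimated from the spacing of the rounded normalized values. By this estimate 1 read counted for 3.87 and 2.55 on the normalized scale in mitochondria but for 0.264 and 0.365 in rest. The mitochondrial values of the members therefore carry the larger counting error. The estimate was least certain for rest replicate 1, where the next-best spacing was 0.173. The members rested on 5 (Sec61b) to 199 (Ssr3) reads over both mitochondrial libraries. All 6 cardiomyocyte markers were above 0 in every library, with sums of 276950 and 204422 normalized counts in mitochondria and 235578 and 206733 in rest. Most of that sum was Myh6, and the median log2 fold change of the 6 was 1.23, with Myl2, Tnnt2, Tnni3 and Actc1 at 0.88 to 1.88, Myh6 at -0.20 and Ryr2 at -1.35. The sums of the 6 fibroblast markers were 8382 and 3550 in mitochondria and 2236 and 3180 in rest, and those of the 5 endothelial markers were 2111 and 1862 against 3114 and 2828. The 4 mural markers summed to 1372 and 1594 against 2488 and 3038, and the 5 blood and immune markers to 298 and 351 against 540 and 397. Both lists were split. The log2 fold change of Pdgfrb was 0.51, while Rgs5, Acta2 and Myh11 were at -0.89, -0.91 and -3.40. Ptprc, Cd68 and Lyz2 were at 0.54, 0.89 and 0.70, while the hemoglobin genes Hbb-bs and Hba-a1 were at -2.92 and -1.77. No defining marker was at 0, and 1 of the 26 (Myh11, smooth muscle myosin, lower in mitochondria) passed the test. The part of these cell types in the member values was not tested, and in whole tissue fewer cells of a type and less RNA per cell cannot be told apart.

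None of the 9 members that could be tested differed between the fractions at an adjusted p under 0.05 (limma with Benjamini-Hochberg adjustment over 12150 genes). Among all tested genes 2.16% were higher and 1.39% lower in mitochondria by this measure. At an unadjusted p under 0.05, 1 of the 9 members (Sec61g) was higher and 0 were lower, where 14.1% of all tested genes were higher and 16.2% lower. Log2 fold changes of the 9 members ran from -0.14 to 0.93 with a median of 0.35, while the median of all tested genes was -0.14. The estimate was above 0 in 8 of the 9, compared with 43.8% of all tested genes. In 5 of the 9 both mitochondrial values lay above both rest values, compared with 27.7% of all tested genes, and in 0 they lay below, compared with 33.4%. The 9 tested members were at 10 normalized counts or more in all 4 libraries, so none of them entered the test through 1 fraction alone. Sec61b reached 10 in 1 library only and was not tested.

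**Figure D2:**
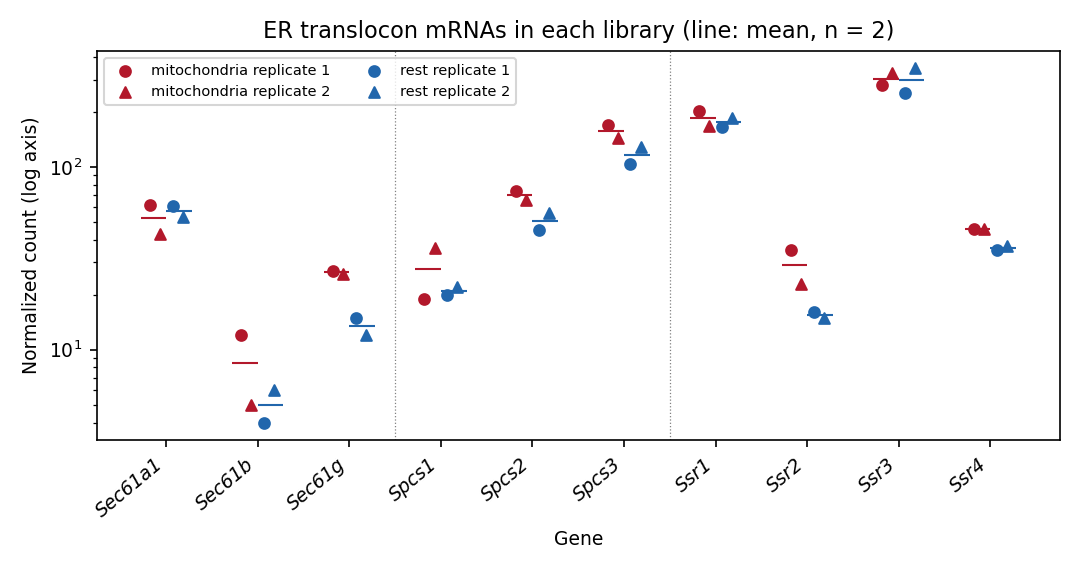
Normalized count (log axis) of each member in mitochondrial (red) and rest (blue) libraries, with circles for replicate 1, triangles for replicate 2 and lines for the mean of 2 libraries. Red points lie above both blue points in Sec61g, Spcs2, Spcs3, Ssr2 and Ssr4 and overlap them in the other 5 genes.

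Of the channel subunits, Sec61a1 did not differ detectably and Sec61g had the largest estimate of all members. Sec61a1 (ENSMUSG00000030082, chr6:88503579-88518905 of GRCm38, minus strand) had normalized counts of 62 and 43 in mitochondria and 61 and 53 in rest. The fractions overlapped, and the fold change was 0.910 (95% interval 0.537 to 1.54, adjusted p = 0.775 by limma). Without mitochondrial replicate 2 its log2 fold change turned from -0.14 to 0.12. Antisense gene Gm44170 covers 549 of its 6732 exon bases.

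Sec61g (ENSMUSG00000078974, chr11:16500530-16508484, minus strand) had 27 and 26 normalized counts in mitochondria and 15 and 12 in rest. Both mitochondrial libraries were above both rest libraries, by 1.91-fold (95% interval 1.02 to 3.58), which did not pass after adjustment (unadjusted p = 0.0465, adjusted p = 0.160 by limma). These values rested on about 7 and 10 reads in mitochondria and 57 and 33 reads in rest. From those reads alone the ratio was 1.89 with a 95% interval of 1.06 to 3.21, which covers counting error only.

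Sec61b (ENSMUSG00000053317, chr4:47474658-47483242, plus strand) was the lowest member, at 12 and 5 normalized counts in mitochondria and 4 and 6 in rest. The fractions overlapped. About 3 and 2 reads were counted in mitochondria and 15 and 16 in rest, and the ratio from those reads was 1.62 with a 95% counting interval of 0.491 to 4.20. A difference in Sec61b was not detectable at this depth. Summed normalized counts of the 3 were 101 and 74 in mitochondria and 80 and 71 in rest, which overlapped.

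The 3 signal peptidase subunits had log2 fold changes of 0.31 to 0.47, and none passed the test. Spcs1 (ENSMUSG00000021917, chr14:30999826-31001672, minus strand), the small subunit, had 19 and 36 normalized counts in mitochondria and 20 and 22 in rest. The mitochondrial replicates lay on both sides of the rest values. Its fold change was 1.24 (95% interval 0.575 to 2.66, adjusted p = 0.651 by limma), and without mitochondrial replicate 2 the log2 fold change was -0.14. Exons of Glt8d1 on the opposite strand cover 252 of its 1546 exon bases.

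Spcs2 (ENSMUSG00000035227, chr7:99837569-99863462, minus strand), which sits beside the catalytic subunit, had 74 and 66 normalized counts in mitochondria and 45 and 56 in rest. The fractions did not overlap, and the fold change was 1.38 (95% interval 0.882 to 2.17, adjusted p = 0.272 by limma). Spcs3 (ENSMUSG00000054408, chr8:54520433-54529998, minus strand), the glycosylated subunit, had 170 and 143 in mitochondria and 104 and 129 in rest. Again both mitochondrial values were the higher ones, with a fold change of 1.34 (95% interval 0.898 to 2.01, adjusted p = 0.265 by limma). Exons of Asb5 on the opposite strand cover 75 of the 3466 exon bases of Spcs3. Summed over the 3 subunits, normalized counts were 263 and 245 in mitochondria and 169 and 207 in rest. The sums did not overlap. The catalytic subunits Sec11a and Sec11c, which are not among the 10, had a median log2 fold change of 0.63, and neither passed the test.

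In the translocon-associated protein complex, the 2 mRNAs with the highest normalized counts were nearly level between fractions under the deposited scaling. Scaled to the library total, both were lower in mitochondria, as were nearly all genes. Ssr3 (ENSMUSG00000027828, chr3:65379655-65392623, minus strand), the gamma subunit, had 279 and 324 normalized counts in mitochondria and 252 and 345 in rest. The rest replicates enclosed the mitochondrial ones. Its fold change was 1.02 (95% interval 0.674 to 1.54, adjusted p = 0.944 by limma), on 199 reads in mitochondria and 1898 in rest. Ssr1 (ENSMUSG00000021427, chr13:37966605-37994217, minus strand), the alpha subunit, had 201 and 168 in mitochondria and 166 and 184 in rest. These overlapped too, with a fold change of 1.05 (95% interval 0.736 to 1.502, adjusted p = 0.825 by limma). The direction of both estimates turned when single libraries were left out.

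Ssr2 (ENSMUSG00000041355, chr3:88575876-88588419, plus strand), the beta subunit, had 35 and 23 normalized counts in mitochondria and 16 and 15 in rest. The fractions did not overlap, and the fold change of 1.78 did not pass the test (95% interval 0.907 to 3.50, unadjusted p = 0.0786, adjusted p = 0.210 by limma). A pseudogene on the opposite strand, Gm10704, covers 239 of its 1864 exon bases. Ssr4 (ENSMUSG00000002014, chrX:73787028-73790830, plus strand), the delta subunit, had 46 and 46 in mitochondria and 35 and 37 in rest. Both mitochondrial values were again above both rest values, with a fold change of 1.27 (95% interval 0.807 to 2.001, adjusted p = 0.398 by limma). Summed normalized counts of the 4 subunits were 561 and 561 in mitochondria and 469 and 581 in rest, so the complex as a whole overlapped between the fractions.

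**Figure D3:**
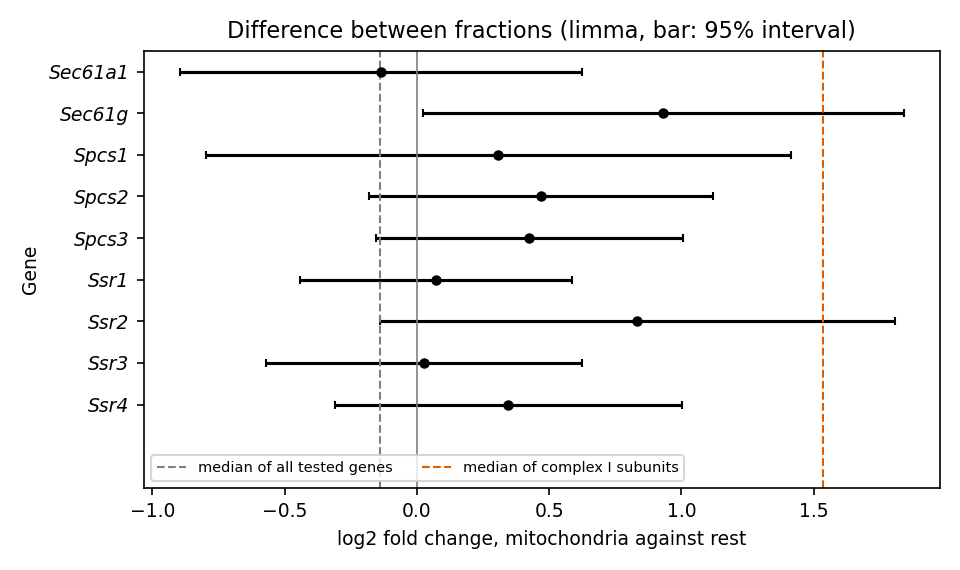
Log2 fold change of mitochondria against rest for the 9 tested members, with bars for the 95% interval of limma, a grey dashed line at the median of all tested genes (-0.14) and an orange dashed line at the median of the complex I subunits (1.53). Intervals of 8 of the 9 members include 0, and those of 7 end below the complex I median.

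Levels per kilobase of mRNA allow the members to be ranked against each other. Ssr3 was highest, at 94.4 and 110 normalized counts per kilobase in mitochondria and 85.2 and 117 in rest. Every one of these values was above those of all other members. Ssr4 followed with 60.1 and 60.1 in mitochondria and 45.8 and 48.4 in rest. Spcs3 had 49.0 and 41.3 in mitochondria and 30.01 and 37.2 in rest, below Ssr4 in both fractions. Spcs1, at 27.1 and 51.3 against 28.5 and 31.3, overlapped with Spcs3 in both fractions. Ssr2, Spcs2, Ssr1 and Sec61a1 had means of 16.6 to 24.4 in mitochondria and 13.0 to 18.8 in rest, and most neighbours in that order overlapped. The exceptions were Spcs2, which was above Ssr1 in mitochondria, and Ssr2, which was below the other 3 in rest. The 2 small channel subunits were lowest, with means of 15.1 and 8.87 for Sec61b and 14.2 and 7.25 for Sec61g in mitochondria and rest. In rest both were below all other members, while in mitochondria their values overlapped with those of Sec61a1. These levels, and all lengths used here, rest on a single annotated mRNA of each gene. It was picked by its APPRIS principal rank, then by the basic tag, and among equals by the longest coding part. For Sec61g the annotated mRNAs with the same coding part ran from 450 to 1862 bases, and its level per kilobase is uncertain for this reason as well as for its copies.

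The difference between fractions changed with length across the nuclear protein-coding genes, and most members lay within the range of genes of the same coding length. By coding length, the median log2 fold change was 0.83 for 833 genes of up to 500 bases, 0.27 for 2224 genes of over 500 to 1000 bases, -0.15 for 4025 genes of over 1000 to 2000 bases and -0.49 for 3515 longer genes. Sec61g, at 0.93, was just above the median of the shortest genes, and Spcs1, at 0.31, was below it. Of the 6 members with over 500 to 1000 coding bases, 4 were above the median of their bin, and their own median was 0.39. Sec61a1, at -0.14, was next to the median of its bin. The estimate lay between the lower and upper quartile of the bin in 8 of the 9 members, and that of Ssr2 (0.83) was above an upper quartile of 0.79. By mRNA length the medians were 1.18, 0.42, -0.11 and -0.47 for genes of up to 1000, over 1000 to 2000, over 2000 to 4000 and over 4000 bases, and 3 of the 9 members lay between the quartiles of their bin. Both tested members with an mRNA under 1000 bases, Spcs1 and Ssr4, lay below the median of their bin, while 6 of the other 7 (Sec61g, Ssr2, Spcs2, Spcs3, Ssr3 and Ssr1) lay above theirs and Sec61a1 lay below. Among mRNAs of up to 1000 bases, 20.5% were called higher in mitochondria. Of these 2 members 0 were, and 2 genes are too few to set against that share.

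**Figure D4:**
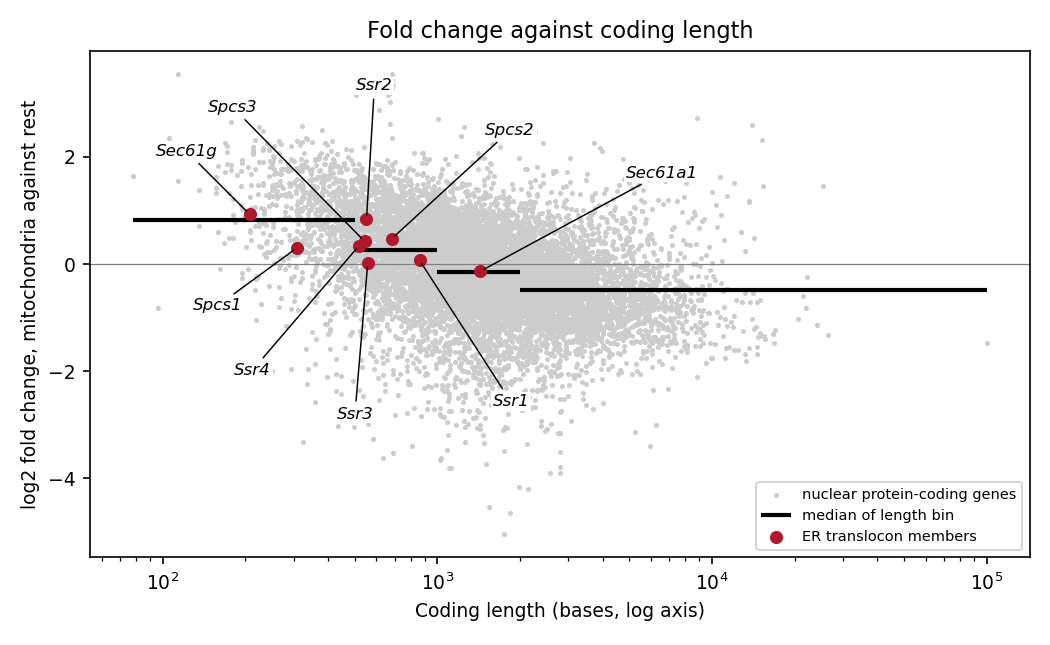
Log2 fold change against coding length (log axis) for nuclear protein-coding genes (grey), with black bars for the median of each length bin (0.83, 0.27, -0.15 and -0.49) and red points for the 9 tested members. Sec61g and Sec61a1 sit next to the medians of their bins and Spcs1 sits below its own.

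Across the 9 members, Spearman's rho between log2 fold change and coding length was -0.58, and with mRNA length it was -0.37. Across 10597 nuclear protein-coding genes both were -0.43. These correlations are across genes of the same 4 libraries, which are not independent replicates, and are given as a description.

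Among the other genes of ER entry, 3 with short coding parts passed the test. Of 66 symbols in the wider list, 61 were among the listed genes and 59 could be tested, and 3 (5.08%, beside 2.16% of all tested genes) were higher and 0 lower in mitochondria. Symbols not found include Srpra, Get3 and Get1, second names of the counted genes Srpr, Asna1 and Wrb. Camlg was not found either, because it is listed as Caml, which was not counted. The median log2 fold change of the 59 was 0.36, next to 0.35 for the members, and 42 of the 59 were above 0, beside 43.8% of all tested genes. The 3 that were higher have coding parts of 240 to 333 bases. Of nuclear protein-coding genes with up to 500 coding bases, 14.0% were called higher. Other genes of the wider list with coding parts this short did not pass. Among them was the gene with the shortest coding part, 114 bases (adjusted p = 0.124 by limma). Srp14, an RNA-binding subunit of the signal recognition particle, had 287 and 268 normalized counts in mitochondria and 76 and 69 in rest, a fold change of 3.79 (95% interval 2.70 to 5.32, adjusted p = 0.0427 by limma). Its partner Srp9 had 151 and 143 in mitochondria and 43 and 46 in rest, a fold change of 3.25 (95% interval 2.24 to 4.73, adjusted p = 0.0427 by limma). Tmem258, a small subunit of the oligosaccharyltransferase that adds sugar chains to entering proteins, had 50 and 46 in mitochondria and 8 and 11 in rest, a fold change of 4.71 (95% interval 2.52 to 8.82, adjusted p = 0.0487 by limma). The libraries of the 2 fractions stood well apart for all 3 genes. When any single library was left out, no gene of the whole table passed the test, and the log2 fold changes were 1.85 to 1.99 for Srp14, 1.65 to 1.75 for Srp9 and 2.03 to 2.44 for Tmem258. Scaled to the library total, which moved nearly all genes below 0, the log2 fold changes of the 3 exceeded that of the median gene by 1.90, 1.70 and 2.38. Scaled to the total without the mitochondrial chromosome, Srp9 did not pass (log2 fold change 0.85, adjusted p = 0.0663 by limma), and without a filter on low values Tmem258 did not (adjusted p = 0.0509). None of the 3 passed with a pseudocount of 0.1 (adjusted p 0.0543 to 0.0626 by limma) or without the mean-variance trend (0.0658 to 0.0754). Copies of these 3 genes were not searched for.

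The 3 lowest estimates of the wider list were given by genes with few reads. Sec61a2, the second form of the channel's pore subunit, had 4 and 0 normalized counts in mitochondria and 17 and 19 in rest. That was 1 read in mitochondria against 116 in rest, a ratio of 0.0865 (95% counting interval 0.00217 to 0.491, adjusted p = 0.118 by limma). Scaled to the total without the mitochondrial chromosome, Sec61a2 was lower (adjusted p = 0.0327 by limma). Both rest libraries were above both mitochondrial libraries, unlike Sec61a1, but the difference between these 2 genes was not tested. Srprb, the membrane-anchored subunit of the signal recognition particle receptor, had 4 and 20 in mitochondria and 29 and 24 in rest (adjusted p = 0.281 by limma). Emc4, of the ER membrane protein complex, had 4 and 15 in mitochondria and 14 and 11 in rest, which overlapped (adjusted p = 0.607 by limma).

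By group, the median log2 fold change was 0.49 for 10 genes of the signal recognition particle and its receptor, of which 2 were higher. It was 0.38 for 12 oligosaccharyltransferase subunits, of which 1 was higher, beside 2.16% of all tested genes. Among the signal recognition particle genes, Srp54a, Srp54b and Srp54c are near-identical paralogs whose counts are uncertain. It was 0.52 for 10 lumenal chaperones and folding enzymes, 0.48 for 6 genes of tail-anchor insertion and 0.49 for 4 genes of the multipass translocon, and none of these passed. For the 10 subunits of the ER membrane protein complex, which inserts membrane helices, the median was -0.21, and none passed. The second pore gene with Sec62, Sec63 and the TRAM proteins had a median of 0.00 over 5 genes.

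Nuclear-encoded complex I subunits, whose proteins are imported into mitochondria and whose mRNAs have short coding parts, had larger estimates than the translocon members. All 38 were tested, and 18 were higher and 0 lower, beside 2.16% and 1.39% of all tested genes. Among nuclear protein-coding genes with mRNAs of up to 1000 bases, 20.5% were higher. The median log2 fold change of the 38 subunits was 1.53, with a range of 0.14 to 2.60. Their median coding length was 438 bases and their median mRNA length 891.5 bases, compared with 552 and 2909 bases for the 9 tested members. The 95% interval ended below the complex I median, a fold change of 2.90, in 7 of the 9 members, the exceptions being Sec61g and Ssr2. Proteasome subunits, which are made in the cytosol, had a median of 0.79 over 31 genes, a range of 0.08 to 1.61 and 2 higher and 0 lower. All 38 complex I and all 31 proteasome estimates were above 0. These lists differ from the members in mRNA length, so length and function cannot be told apart in this comparison.

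**Figure D5:**
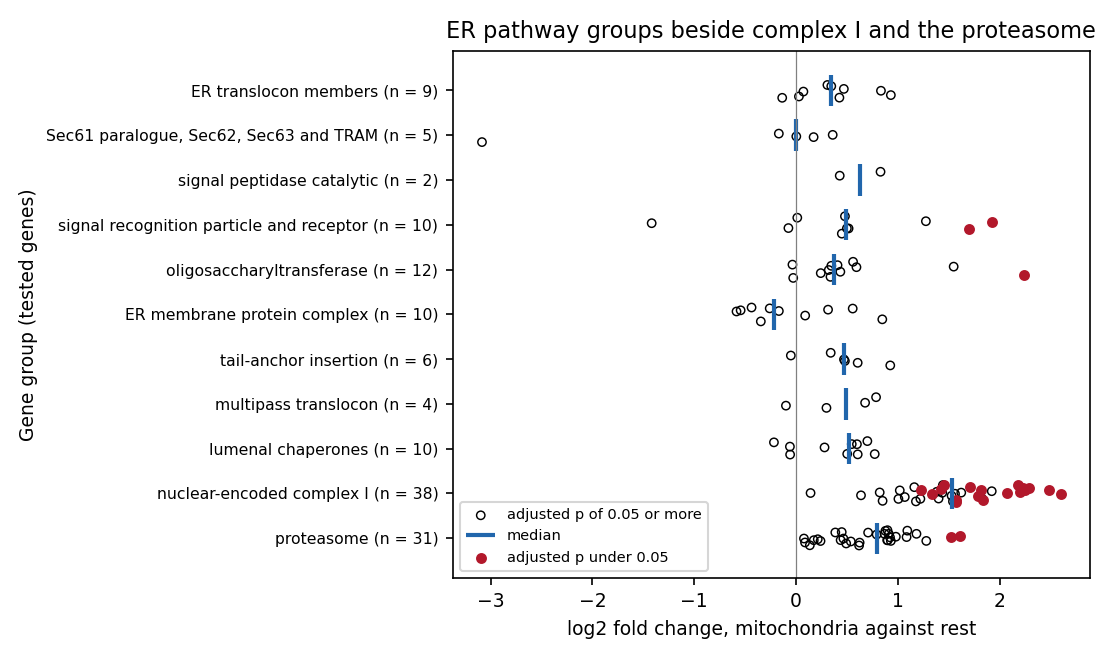
Log2 fold change of each tested gene, by group, for the members, the wider ER pathway, complex I and the proteasome, with blue bars for the group median, red for an adjusted p under 0.05 and open circles for the rest. The member median (0.35) lies among the ER groups (-0.21 to 0.63) and below complex I (1.53) and the proteasome (0.79).

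The sign of the members' estimates depended on the reference. Scaled to the library total, in which the mitochondrial chromosome dominates, the median of all tested genes moved from -0.14 to -3.93. All 9 members were then called lower in mitochondria (log2 fold changes of -4.02 to -2.82), beside 12022 of the 12150 tested genes. Relative to the median gene, 7 of the 9 were above it. Scaled to the total without the mitochondrial chromosome, the median gene was at -0.98 and the members lay between -0.98 and 0.11. No member passed the test, while 129 of the 12150 tested genes were higher and 3819 lower. Of the 9 members, 8 were above the median gene. With the deposited scaling 9 of the 9 were above it, Sec61a1 only just.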

How the data were processed

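RNA-seq libraries of the mitochondrial and rest fractions of WT mouse hearts (2 each) were analysed. Per the submitters' processing notes, reads were trimmed with Trimmomatic 0.39, aligned to mm10 with STAR 2.7.10a, counted with featureCounts 2.0.2 and scaled with DESeq2 1.30.1. The authors' methods name other releases of the last 3 tools. The authors kept only reads with a single alignment that touched 1 gene, and the use of strand in counting is not given in the sources used here. The deposited signal per gene is a read count that the authors divided by the size factor of its library and rounded. Whole counts could not be recovered in the rest libraries, where a read is worth under 1 unit, so count tests were not run. Read numbers were estimated from the spacing of the rounded values and are approximate in rest. Intervals from reads cover counting error only, not error in that spacing.

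Linear models with a mean-variance trend (limma 3.58.1, R 4.3.3) were fitted to log2(normalized count + 1) for the 12150 genes at 10 or more in at least 2 libraries, with Benjamini-Hochberg adjustment and a threshold of 0.05. Fold changes are on this scale and understate those of low genes. The procedure was also run on simulated data. There all genes had the same spread beyond counting error, so that run does not show how it performs on these libraries. An exact permutation test of 2 against 2 libraries cannot go below p = 0.333 and was not used. The labels do not state that replicates came from separate animals, so p-values measure only the spread between these libraries. Lengths, sequences, overlaps and shared windows came from GENCODE M21 (GRCm38). The members and lists were chosen with earlier results of these data known. All members were named, and of the wider ER list those past the threshold with the 3 highest and 3 lowest estimates. Alternatives covered scaling, pseudocount, filter, trend, replicate block and leaving out each library.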

Additional observations from a re-analysis of the deposited data

How the results depend on the processing

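No member was called under any alternative except scaling to the library total, where 9 were lower. Under that scaling log2 fold changes were -2.82 for Sec61g, -3.51 for Ssr4, -3.52 for Spcs3, -3.43 for Spcs2, -2.95 for Ssr2, -3.44 for Spcs1, -3.88 for Ssr1, -3.94 for Ssr3, -2.03 for Srp14, -1.55 for Tmem258 and -2.23 for Srp9; the member median was -3.51, 2 and 12022 of all tested genes were higher and lower, and 0 and 58 of the wider ER list. Without the mitochondrial chromosome in the total, values were -0.50 for Ssr4, -0.43 for Spcs3, -0.38 for Spcs2, -0.52 for Spcs1, -0.79 for Ssr1 and -0.83 for Ssr3, the member median was -0.50, 129 genes were higher and 3819 lower, and 3 of the wider ER list were lower. The cause was not tested.

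Higher and lower counts over all genes, 262 and 169 as reported, were 615 and 412 with the nuclear protein-coding total and 536 and 580 with a pseudocount of 10. With a pseudocount of 0.1 they were 0 and 0, where 0 of the wider ER list passed (1694 and 1754 at an unadjusted p under 0.05, limma). Without a filter 630 were lower. With a mean above 50 they were 790 and 670 over fewer genes, 5 of the wider ER list were higher, and the median over the 5 members left was 0.072. Without the trend 24 were higher and 0 of the wider ER list. The cause was not tested.

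With any 1 library left out, limma called 0 genes higher and 0 lower, in the table and in the wider ER list, with 590 to 2333 higher and 468 to 3324 lower at an unadjusted p under 0.05; the lone library is then assumed to vary like the other fraction. The member median was 0.27 to 0.38. Ranges that crossed 0 were -0.40 to 0.12 for Sec61a1 and -0.14 to 0.75 for Spcs1 (turned without mitochondrial replicate 2), -0.057 to 0.20 for Ssr1 (without mitochondrial replicate 1 or rest replicate 1), -0.20 to 0.25 for Ssr3 (without mitochondrial replicate 2 or rest replicate 1) and -1.42 to 0.25 for Emc4 (without mitochondrial replicate 1).

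Same-numbered libraries share only a number in the labels, and the correlation of their deviations was 0.130 over 12150 genes. With the replicate block, 470 genes were higher and 309 lower, and 0 members were called (adjusted p 0.233 to 0.936 by limma). Neither under the block nor with the nuclear protein-coding total was Sec61g under an unadjusted p of 0.05.

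Depth limits Sec61b, Sec61g and Ssr2 most, at 5, 17 and 18 reads over the mitochondrial libraries. Sec61b was tested only without a filter (log2 fold change 0.58, adjusted p = 0.567 by limma). The alternatives for the named genes of the wider ER list were chosen after seeing the data.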
